A study of Mus musculus with 8 samples.

Results

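The integrated stress response targets examined here are 10 genes chosen by name and found in both deposited tables, of 24469 genes listed there: Atf4, Ddit3, Trib3, Ppp1r15a, Chac1, Slc7a11, Asns, Psat1, Phgdh and Sesn2. RNA had been sequenced from pancreatic islets, picked by hand from mice aged 8 weeks. Of the 8 libraries, 4 were made from wild-type C57BL/6 mice and 4 from mice carrying the Rpl13a snoRNA knockout on that background, which removes the function of U32a, U33, U34 and U35a. These are box C/D snoRNAs, guides for 2'-O-methylation of RNA, and they are encoded within introns of Rpl13a, a ribosomal protein gene. No agent was given to either group per the labels, and the sex of the mice is not given in the sources used here. A comparison of the genotypes asks which transcripts differ between islets with and without these snoRNAs.

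In the integrated stress response, 4 kinases that sense different stresses phosphorylate the translation initiation factor eIF2 on its alpha subunit. Global protein synthesis then slows, while a few messages with upstream reading frames, among them that of the transcription factor ATF4, are translated more. ATF4 and its partners switch on genes for amino acid supply, redox balance and feedback, and prolonged activity can lead to cell death. Beta cells make large amounts of proinsulin and depend on the eIF2 kinase PERK for their survival, so this pathway has been studied closely in islets. Because ATF4 is controlled largely at translation, the level of its RNA is not a direct readout of its activity.

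Total counts ran from 21235196 to 41148318 per library. Of the targeted snoRNAs, Snord32a had 5, 1, 1 and 2 counts and Snord33 had 2, 0, 4 and 0 counts for wild-type replicates 1 to 4, and both had 0 in every knockout library. Snord34 and Snord35a had 0 counts in all 8 libraries, wild type included, so they check nothing. In a library a count of 0 allows up to 3 counts, for counting error only. Islet identity was checked with the 6 hormone genes Ins1, Ins2, Iapp, Gcg, Sst and Ppy, which took 10.2 to 24.3% of assigned counts in wild type and 9.02 to 16.7% in knockout (exact two-sided permutation p = 0.114, where the smallest possible p is 0.0286). Markers of acinar cells, the enzyme-secreting exocrine cells around islets, were all detected. Their share of counts, over 20 genes, was 15.1, 1.23, 8.99 and 2.94% for wild-type replicates 1 to 4, against 12.9, 2.90, 13.9 and 9.59% for knockout replicates 1 to 4 (exact two-sided permutation p = 0.543). In bulk RNA, fewer cells of a type and less RNA per cell cannot be told apart. The other marker lists were small, at most 0.0169% of counts for duct, 0.0322% for endothelium, 0.0142% for stellate cells and fibroblasts, and 0.00236% for leukocytes. Xist, the X-inactivation RNA of female cells, was above 1000 counts in wild-type replicate 4 and knockout replicates 1 and 4, and with this split as a covariate 0 of the 10 genes passed FDR 0.05 in edgeR's test (1 at an unadjusted p under 0.05, beside 19.6% of all genes).

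ATF4 acts through C/EBP-ATF response elements, and promoter windows of the 10 genes were searched for the core TGATGNAA on both strands. The windows, from RefSeq on GRCm38.p6, span 250 bases before the annotated start and 50 after it, and all 10 genes matched. Positions count from the annotated start, with -1 as the base just before it and 1 as the first transcribed base. The core occurred in windows of 4 of the 10 genes, Chac1, Asns, Slc7a11 and Trib3, and in 3.97% of all 32851 windows. The stretches below are shown because they carry these matches, with the matched letters in capitals. Slc7a11 held the core 2 times within the 100 bases before its start. The Trib3 match lies after the start, at position 15, so only 30 bases around it are shown. For Ppp1r15a the capitals mark instead the cyclic AMP response element TGACGTCA, a palindrome that is the same on both strands and does not contain the first motif. It was looked for after that promoter had been read, and 1.79% of all windows held it. A match is a string of letters and not a measured binding site.
Chac1, chr2:119351022-119351091, plus strand, first matched base at -193: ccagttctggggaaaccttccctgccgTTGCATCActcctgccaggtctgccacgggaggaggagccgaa
Asns, chr6:7693210-7693289, minus strand, first matched base at -23: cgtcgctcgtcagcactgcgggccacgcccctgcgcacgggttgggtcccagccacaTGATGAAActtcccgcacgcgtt
Slc7a11, chr3:50443614-50443713, minus strand, first matched bases at -66 and -47: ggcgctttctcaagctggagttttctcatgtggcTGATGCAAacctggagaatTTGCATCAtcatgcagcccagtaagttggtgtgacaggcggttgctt
Trib3, chr2:152344024-152344053, minus strand: ctcaggtTTACATCAgccgggcggggatcc
Ppp1r15a, chr7:45526269-45526368, minus strand, first matched base at -12: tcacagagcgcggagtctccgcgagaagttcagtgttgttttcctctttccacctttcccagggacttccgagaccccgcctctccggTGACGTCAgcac

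With all 8 libraries, edgeR's quasi-likelihood test of knockout against wild type called 0 of the 10 genes at an adjusted p of 0.05 (Benjamini-Hochberg, FDR). In that fit 2 of 13617 genes passed, or 0.0147%. At an unadjusted p under 0.05 it called 1 of the 10, Ppp1r15a, beside 18.7% of all genes tested (10.3% lower and 8.42% higher in knockout). DESeq2 called 1 of the 10 genes, Ppp1r15a, beside 3.86% of all genes (2.38% lower, 1.48% higher). So did limma-voom with library weights, beside 4.03% of all genes (2.35% lower), while limma-voom without weights and limma-trend called 0. Log2 fold changes (knockout over wild type) were positive for 5 of the 10 and negative for the other 5, with a median of 0.089 against 0.0098 over all genes. The values were negative for Atf4, Ddit3, Ppp1r15a, Chac1 and Sesn2 and positive for Trib3, Asns, Psat1, Phgdh and Slc7a11. Those of Ddit3, Chac1 and Trib3 changed sign with 1 library left out.

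**Figure D1:**
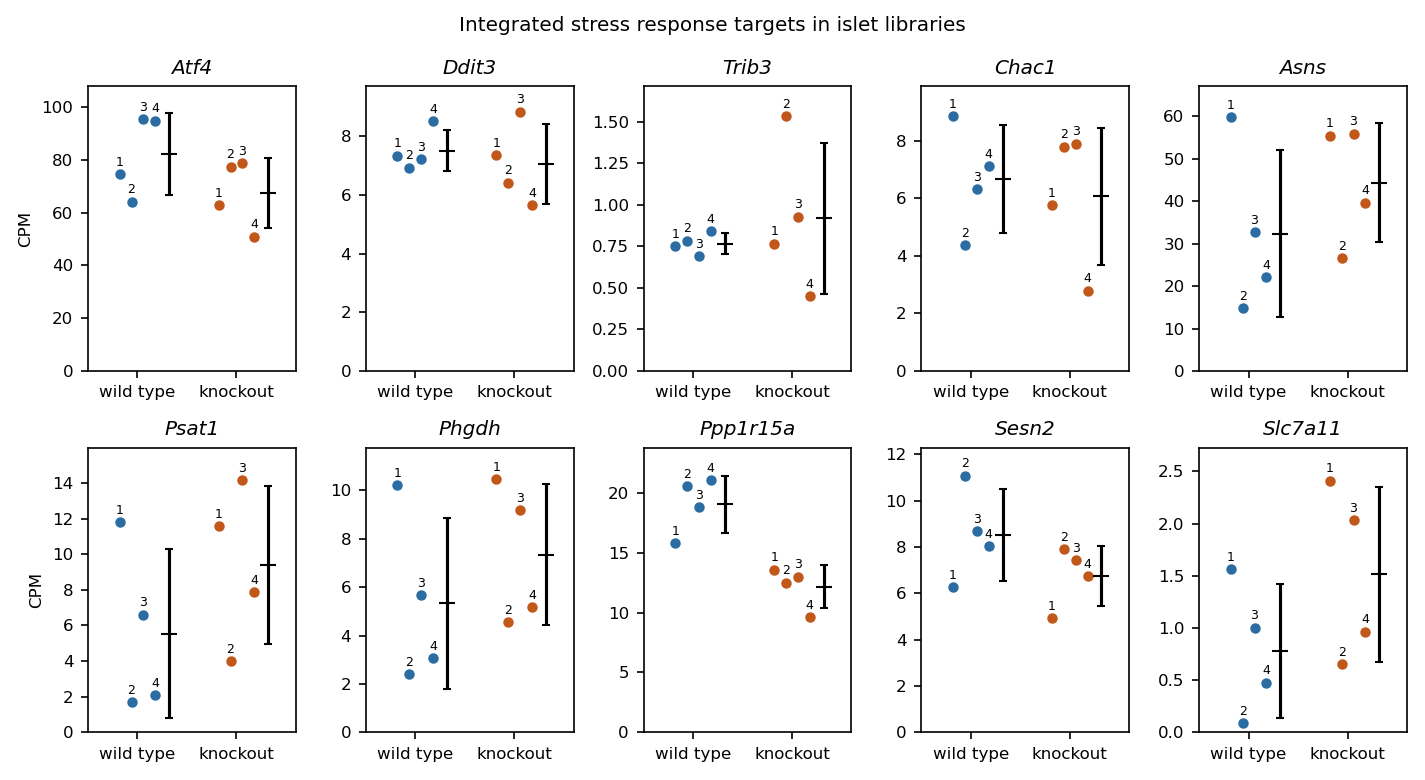
CPM (counts scaled to library size with TMM factors, y axis from 0) of the 10 genes in each library; numbers are replicates, and the black bar is the mean with its SD (n = 4 mice per genotype). Ppp1r15a is the gene whose 4 knockout libraries all lie below the 4 wild-type libraries; the other 9 overlap.

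Levels were first compared between genes on a scale that allows it, CPM per kilobase of the longest coding transcript, where CPM are counts as a rate of library size scaled by edgeR's TMM factors. In wild type Atf4 was highest at 47.7 ± 8.93 CPM per kb (SD, n = 4). Asns followed at 16.1 ± 9.79, Ddit3 at 8.43 ± 0.79 and Ppp1r15a at 6.78 ± 0.85 CPM per kb. The wild-type libraries of Asns and Ddit3 overlapped, whereas Atf4 lay above Asns in all of them and Ddit3 above Ppp1r15a. Chac1 (4.07 ± 1.14), Phgdh (2.82 ± 1.87), Sesn2 (2.45 ± 0.57) and Psat1 (2.12 ± 1.81) formed a run in which each neighbouring pair overlapped. Trib3, at 0.38 ± 0.031, and Slc7a11, at 0.085 ± 0.070 CPM per kb, were lowest. The first 4 and last 2 places were the same in knockout, and only genes of the overlapping run changed places.

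Atf4 encodes the transcription factor at the centre of the response. It was measured at 74.6, 64.2, 95.3 and 94.8 CPM in wild-type replicates 1 to 4 and at 62.8, 77.4, 78.7 and 50.9 CPM in knockout replicates 1 to 4. Knockout replicates 1 and 4 lay below every wild-type library, and the other 2 lay within the wild-type range. The fold change was -0.29 ± 0.17 in log2 (SE; edgeR adjusted p = 0.360). It was -0.39 without wild-type replicate 2, and leaving out knockout replicate 4 gave -0.17.

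Ddit3 encodes CHOP, a transcription factor tied to cell death under long stress. Its levels were 7.34, 6.92, 7.22 and 8.52 CPM in wild type and 7.35, 6.42, 8.83 and 5.65 CPM in knockout. The knockout libraries spread to both sides of the wild-type ones. The log2 fold change was -0.090 ± 0.149 (edgeR adjusted p = 0.766), the smallest of the 10, and it was 0.0043 without knockout replicate 4.

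Trib3 encodes a pseudokinase that is induced by ATF4 and CHOP and restrains them. It rested on 13 to 47 counts per library. Wild-type levels were close together, at 0.75, 0.78, 0.69 and 0.84 CPM, and knockout levels were 0.76, 1.53, 0.93 and 0.45 CPM. Both the highest and the lowest library were knockout libraries, replicates 2 and 4. The log2 fold change was 0.27 ± 0.35 (edgeR adjusted p = 0.699), and without knockout replicate 2 it was -0.13.

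Ppp1r15a encodes GADD34, the inducible subunit that brings protein phosphatase 1 to eIF2 and so ends the response. It was measured at 15.8, 20.6, 18.8 and 21.0 CPM in wild-type replicates 1 to 4 and at 13.6, 12.5, 13.0 and 9.61 CPM in knockout replicates 1 to 4. All 4 knockout libraries lay below all 4 wild-type libraries, of which replicate 1 was the lowest. Over all genes tested, 8.34% did not overlap between genotypes, 4.66% with knockout lower and 3.68% with knockout higher. The knockout level was 0.637-fold that of wild type, or -0.65 ± 0.13 on the log2 scale (SE, edgeR adjusted p = 0.116). Without wild-type replicate 1 the log2 fold change was -0.75 and the adjusted p 0.0109. In that fit 1313 genes, or 9.46% of those tested, passed FDR 0.05, and 6.08% were lower in knockout. DESeq2 gave an adjusted p of 0.0031, and the other fits gave 0.0109 to 0.817. With the share of acinar counts as a covariate the value was -0.60 ± 0.13 (edgeR adjusted p = 0.108). That covariate without wild-type replicate 1, a fit chosen after the values were seen, gave -0.74 ± 0.16 (edgeR adjusted p = 0.0385), where 3.38% of all genes passed and 1.67% were lower. In the authors' RPM values, which carry no composition factor, wild-type replicate 1 (7.17 RPM) lay below knockout replicate 2 (8.63 RPM), and there the genotypes overlapped, beside 1.36% of all genes that did not.

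The constitutive partner in the same step is Ppp1r15b, which encodes CReP, the other subunit that directs the phosphatase to eIF2. Its mean was 34.8 ± 9.23 CPM over the wild-type libraries and 43.8 ± 4.54 CPM over the knockout ones (log2 fold change 0.33 ± 0.17, edgeR adjusted p = 0.295), opposite in sign to Ppp1r15a. Within a library the log2 ratio of Ppp1r15a to Ppp1r15b counts was -1.60, -0.37, -0.85 and -0.55 in wild type and -1.80, -1.63, -1.89 and -2.11 in knockout. The ratio needs no scaling between libraries, and every knockout value was below every wild-type value, with wild-type replicate 1 just above knockout replicate 2. It does not remove differences in acinar share. Where that share was highest, Ppp1r15b was at 47.9 (wild-type replicate 1), 47.2 and 48.1 CPM (knockout replicates 1 and 3). Where it was lowest, Ppp1r15b was at 26.6 and 30.9 (wild-type replicates 2 and 4) and 38.6 CPM (knockout replicate 2). With the acinar share as a covariate its log2 fold change was 0.24 ± 0.094 (edgeR adjusted p = 0.243). The pair was picked with the values of Ppp1r15a known, so no test is given. Ppp1r15a alone already separated the genotypes in CPM, so the ratio is no separate result. No share over other gene pairs is given.

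Ppp1r15a also lies near the altered locus on chromosome 7, 17 tested genes from Rpl13a in RefSeq gene order. Rpl13a itself averaged 105 ± 26.0 CPM over wild-type and 97.8 ± 8.16 over knockout libraries (log2 fold change -0.097 ± 0.156). Of the 15 tested genes on each side of Rpl13a, 22 of 30 had negative log2 fold changes, with a median of -0.23, beside 48.7% negative over all genes. In that set 2 were lower and 1 was higher without overlap between genotypes, beside 4.66% and 3.68% of all genes. In edgeR's test 0 passed FDR 0.05. At an unadjusted p under 0.05 there were 8 lower and 1 higher, beside 10.3% and 8.42% of all genes. Ppp1r15a and Nucb1, 17 and 16 tested genes from Rpl13a, lie outside that set. Nucb1, the direct neighbour on the side of Rpl13a, encodes a calcium-binding Golgi protein. It had a log2 fold change of -0.44 ± 0.11 (edgeR adjusted p = 0.140) with no overlap between genotypes, and Plekha4 on the other side had -0.40 ± 0.32 with overlap. Ppp1r15a itself did not pass FDR 0.05 in edgeR's test with all libraries (adjusted p = 0.116). Should its level differ by genotype, an effect of position near the altered allele and one of the missing snoRNAs cannot be told apart here.

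**Figure D2:**
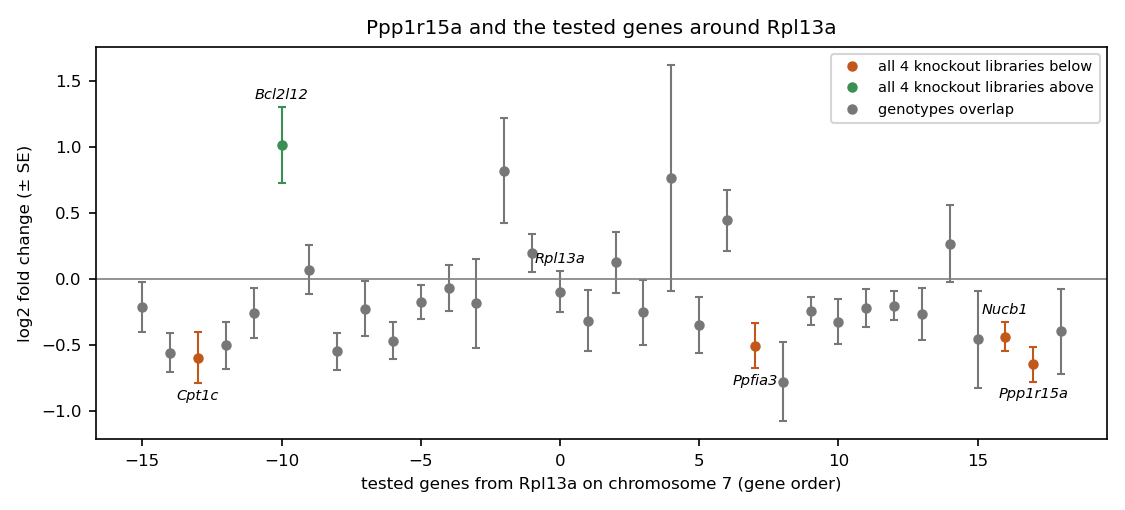
Log2 fold change (knockout over wild type, ± SE, n = 4 per genotype) of the tested genes around Rpl13a on chromosome 7, placed by gene order and not by distance. Most points lie below 0; Ppp1r15a and its neighbour Nucb1 are at the right edge, at -0.65 and -0.44.

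Chac1 encodes an enzyme that breaks down glutathione and is among the most strongly ATF4-dependent genes. Its levels were 8.87, 4.37, 6.32 and 7.11 CPM in wild type and 5.76, 7.79, 7.91 and 2.80 CPM in knockout. The knockout libraries ran over most of the wild-type range, and replicate 4 lay below it. The log2 fold change was -0.14 ± 0.33 (edgeR adjusted p = 0.841). It changed sign to 0.11 without knockout replicate 4 and to 0.011 without wild-type replicate 1.

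Sesn2 encodes sestrin 2, a leucine sensor that holds back mTORC1. It was at 6.26, 11.1, 8.67 and 8.04 CPM in wild type and at 4.94, 7.92, 7.42 and 6.75 CPM in knockout. Wild-type replicate 1 lay among the knockout libraries, and the other 3 wild-type libraries lay above all knockout libraries. The log2 fold change was -0.33 ± 0.19 (edgeR adjusted p = 0.352), and without wild-type replicate 1 it was -0.46 (adjusted p = 0.114). With the share of acinar counts as a covariate it was -0.21 ± 0.16 (edgeR adjusted p = 0.506). Without wild-type replicate 2, the highest library, it was -0.17.

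Asns, Psat1 and Phgdh supply amino acids. Asns encodes asparagine synthetase, which is known for high expression in exocrine pancreas, and Phgdh and Psat1 encode the first and second enzymes of serine synthesis. Asns was at 59.8, 14.8, 32.8 and 22.1 CPM in wild-type replicates 1 to 4 and at 55.5, 26.5, 56.0 and 39.6 CPM in knockout replicates 1 to 4. Psat1 was at 11.8, 1.69, 6.60 and 2.10 CPM in wild type and at 11.6, 4.01, 14.1 and 7.87 CPM in knockout. Phgdh was at 10.2, 2.41, 5.67 and 3.08 CPM in wild type and at 10.5, 4.56, 9.19 and 5.17 CPM in knockout. The 3 genes shared the same libraries at the extremes. Wild-type replicate 1 and knockout replicates 1 and 3 were the 3 highest. Wild-type replicates 2 and 4 and knockout replicate 2 were the 3 lowest. The genotypes overlapped for each of them. Log2 fold changes were 0.45 ± 0.47 for Asns, 0.76 ± 0.72 for Psat1 and 0.45 ± 0.51 for Phgdh (edgeR adjusted p = 0.628, 0.595 and 0.659).

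Slc7a11 encodes the light chain of the cystine-glutamate exchanger, which feeds glutathione synthesis. It was at 1.57, 0.090, 1.00 and 0.48 CPM in wild type and at 2.41, 0.65, 2.03 and 0.96 CPM in knockout. The lowest value, in wild-type replicate 2, rested on 3.03 estimated counts, and the other 7 libraries had 17.2 to 47.6. Its 3 highest and 3 lowest libraries were those of Asns, Psat1 and Phgdh. The log2 fold change was 0.92 ± 0.71 (edgeR adjusted p = 0.496), from 0.55 without wild-type replicate 2 to 1.50 without wild-type replicate 1.

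For these 4 genes the extreme libraries, though not their exact order, were also those of the acinar markers. Their 3 lowest libraries were the 3 with the lowest acinar share, and their 3 highest the 3 with the highest. None of the other 6 genes showed both matches. Among the acinar-rich libraries, Asns was at 59.8 CPM in wild-type replicate 1 and at a mean of 55.7 CPM in knockout replicates 1 and 3. Among the acinar-poor ones it was at a mean of 18.5 CPM in wild-type replicates 2 and 4 and at 26.5 CPM in knockout replicate 2. With the share of acinar counts as a covariate the log2 fold change of Asns was 0.25 ± 0.11, that of Psat1 0.51 ± 0.15, that of Phgdh 0.25 ± 0.17 and that of Slc7a11 0.62 ± 0.36. The errors were smaller than without the covariate, and the adjusted p-values were 0.267, 0.163, 0.453 and 0.384 in edgeR's test. Without wild-type replicate 1, the acinar-richest library, the values were instead 0.92, 1.43, 0.96 and 1.50 (adjusted p = 0.172, 0.233, 0.179 and 0.217).

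**Figure D3:**
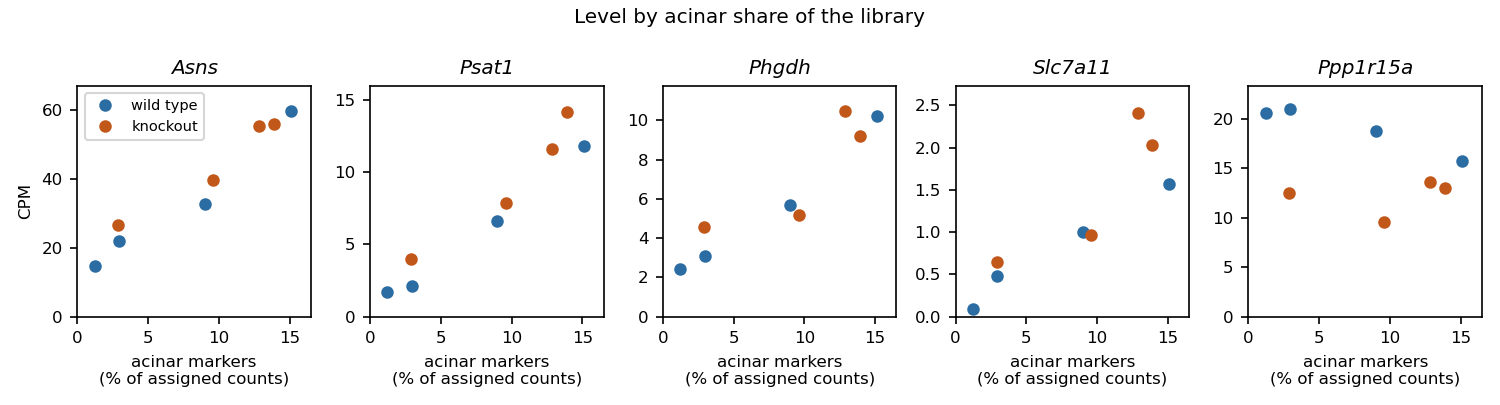
CPM (y axis from 0) of Asns, Psat1, Phgdh, Slc7a11 and Ppp1r15a against the share of assigned counts on 20 acinar marker genes; each point is a library, blue for wild type and orange for knockout. The first 4 genes are lowest at low and highest at high acinar shares in both genotypes, and Ppp1r15a lies lower in knockout at low and at high shares.

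**Figure D4:**
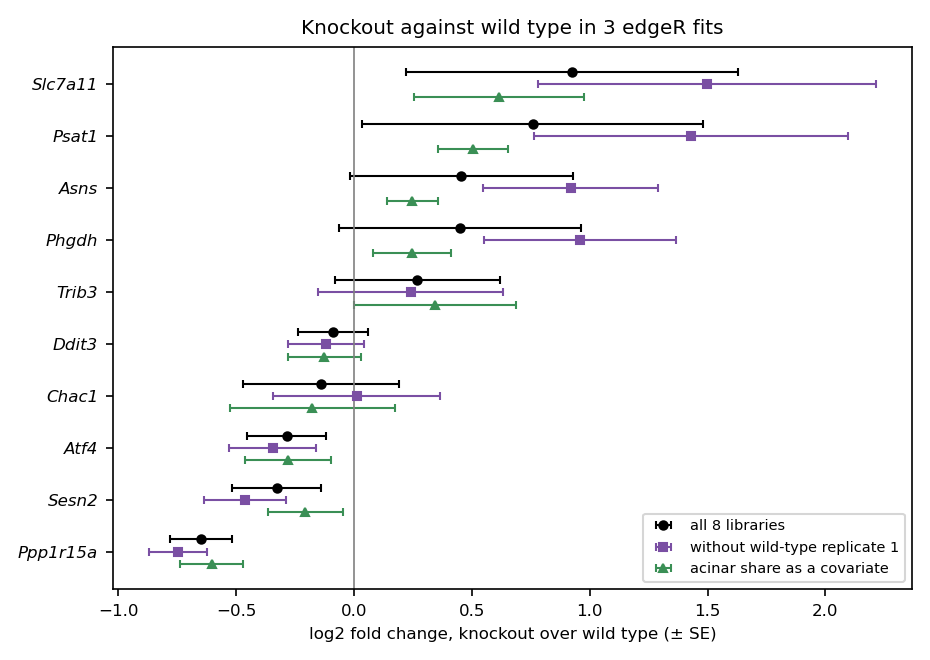
Log2 fold change (knockout over wild type, ± SE) of the 10 genes in 3 edgeR fits: all 8 libraries, without wild-type replicate 1, and with the share of acinar counts as a covariate. Ppp1r15a lies between -0.75 and -0.60 in the 3 fits, while Psat1 runs from 0.51 to 1.43.

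Across the 8 libraries Asns, Psat1, Phgdh and Slc7a11 had Pearson correlations of log2 CPM of 0.936 to 0.978 over their 6 pairs. The other 6 genes shared no single pattern, with correlations of -0.105 to 0.749 over 15 pairs and a median of 0.463. Between the sets the 24 correlations ran from -0.849 to 0.356, and the 4 most negative, from -0.849 to -0.749, were those of Sesn2. With the 5 genes of its own set Sesn2 had -0.105 to 0.546. These values describe 8 libraries that differ in acinar share and genotype, and they are no test. Of all other genes tested, Nfrkb (r = 0.988) and Snapc4 (r = 0.984) were most like Ppp1r15a across the 8 libraries. Doc2a (r = 0.969) was most like Atf4, Rtfdc1 (r = 0.918) most like Ddit3, and Larp4 (r = 0.996) most like Asns. Homer2 (r = 0.997) was most like Psat1 and Kcmf1 (r = 0.988) most like Phgdh, followed by Eif4ebp1 (r = 0.985), a translational repressor gene that is itself a known ATF4 target. Each of these is the top or next value among 13607 correlations. Eif4ebp1 was also highest in wild-type replicate 1 (12.6 CPM) and knockout replicates 1 and 3 (11.2 and 12.2 CPM), where acinar shares were highest. Its log2 fold change was 0.35 ± 0.55, and 0.087 ± 0.147 with the acinar covariate. A shared control by ATF4 was not tested.

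The rest of the pathway was read from 6 lists and from a list of the ATF6 and XBP1 arms of the unfolded protein response. Of the 90 genes in these 7 lists 87 were tested, and 0 passed FDR 0.05 in edgeR's test with all 8 libraries. At an unadjusted p under 0.05 there were 9 higher and 1 lower of the 87, beside 8.42% higher and 10.3% lower over all genes. DESeq2 called 1, the alanine aminotransferase gene Gpt2 (adjusted p = 0.0280), and the 3 limma fits called 0. Without wild-type replicate 1 88 of the genes were tested and there were 5 calls, beside 9.46% of all genes called in that fit. All 5 were higher in knockout, beside 3.39% of all genes called higher: Ppp1r15b, Eif2s1, Mthfd2, Tars and Xbp1.

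Upstream of ATF4, the kinases and eIF2 factors had 10 positive and 6 negative log2 fold changes, with a median of 0.070. The direction turned without a composition factor (6 positive and 10 negative, median -0.055), with limma-trend (5 and 11, median -0.065) and with the acinar covariate without wild-type replicate 1 (7 and 9, median -0.057). In the same fits the median of all genes was -0.11, -0.088 and -0.0033. The list thus lay above all genes without a composition factor and with limma-trend, and below them in the last fit. Eif2s1, the eIF2 alpha subunit that the kinases phosphorylate, was at 4.60, 2.26, 3.35 and 3.36 CPM in wild type and at 4.65, 4.50, 4.55 and 5.14 CPM in knockout. Only wild-type replicate 1 reached the knockout range. Its log2 fold change was 0.47 ± 0.20 (edgeR adjusted p = 0.235), and 0.64 without that library (adjusted p = 0.0479). Eif2ak3, the gene of the kinase PERK, had 0.063 ± 0.192, and Eif2ak4, the gene of the amino acid sensor kinase GCN2, had -0.012 ± 0.130.

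The partner transcription factors had 6 positive and 2 negative values and a median of 0.25, which was 0.14 without wild-type replicate 2. Cebpg, a dimer partner of ATF4, had a log2 fold change of 0.28 ± 0.12. Cebpa had 1.73 ± 0.71 (edgeR adjusted p = 0.254), and its level of 11.4 CPM in knockout replicate 2 stood far above the 1.90 to 3.22 CPM of the other knockout libraries. Without that library its value was 0.84. Atf3, a stress-induced repressor, had -0.38 ± 0.30, and Atf5, a second ATF4-like factor, had -0.037 ± 0.178. Nupr1, a chromatin-associated stress protein gene abundant in acinar cells, ran from 35.3 to 352 CPM in wild type and from 40.7 to 307 CPM in knockout (0.27 ± 1.01).

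Genes of amino acid enzymes and carriers lay to the positive side. In the list of serine, one-carbon and other amino acid enzymes 11 of 11 tested genes had positive values, with a median of 0.29, and in the transporter list 8 of 8, with a median of 0.19. With the share of acinar counts as a covariate 10 and 6 of these genes were positive and the medians were 0.26 and 0.11. Without a composition factor the counts were again 10 and 6, with medians of 0.22 and 0.091, and with limma-trend they were 9 and 6, with medians of 0.083 and 0.055. Of all 13617 genes 6983 were positive in the edgeR fit on genotype alone and 7021 with the acinar covariate. Without a composition factor 5011 were positive, and with limma-trend 4513. The median of all genes was -0.11 without a composition factor and -0.088 with limma-trend. For the transporters 5 were positive without knockout replicate 3 (median 0.10) and 6 without wild-type replicate 2 (median 0.071), and without wild-type replicate 1 the median was 0.36. Mthfd2, a mitochondrial folate enzyme gene, ran from 9.12 to 19.5 CPM in wild type and was at 25.4, 16.4, 26.1 and 18.6 CPM in knockout. Wild-type replicate 1 was the only wild-type library inside the knockout range. Its log2 fold change was 0.66 ± 0.25 (edgeR adjusted p = 0.221), and 0.50 ± 0.10 with the acinar covariate (adjusted p = 0.108). Shmt2, the mitochondrial serine hydroxymethyltransferase gene, had 0.45 ± 0.19, and Psph, which completes serine synthesis, had 0.29 ± 0.22. Gpt2 was at 3.36 to 6.26 CPM in wild type and at 9.12, 17.2, 6.10 and 5.59 CPM in knockout replicates 1 to 4 (1.15 ± 0.40, edgeR adjusted p = 0.204), and without knockout replicate 2 its value was 0.68. Aldh18a1, of proline synthesis, had 0.099 ± 0.111. Among transporters Slc7a1 had 0.22 ± 0.16, Slc38a2 0.16 ± 0.17, Slc1a5 0.65 ± 0.67 and Slc7a5, a carrier of large neutral amino acids, 0.026 ± 0.120. The value of Slc1a5 was 0.22 ± 0.20 with the acinar covariate, and with 1 library left out it ran from 0.34 (knockout replicate 1) to 1.17 (wild-type replicate 1). That of Slc38a2 ran from 0.037 (knockout replicate 3) to 0.29 (knockout replicate 4).

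The tRNA charging list had 10 positive and 3 negative values and a median of 0.15, and the other effectors 6 and 5 with a median of 0.17. The median of the tRNA charging list was 0.050 without a composition factor, 0.012 with limma-trend and 0.087 without knockout replicate 3. That of the effectors turned to -0.016 without a composition factor, -0.067 with no filter on low counts, -0.030 without wild-type replicate 4, -0.070 without knockout replicate 3 and -0.057 with the acinar covariate without wild-type replicate 1. Over all genes the median was -0.11 without a composition factor and -0.088 with limma-trend, below both lists. In the other fits just named it lay between -0.0033 and 0.012. Wars, the tryptophanyl-tRNA synthetase gene, had -0.28 ± 0.12, while Yars and Eprs had 0.23 ± 0.11 and 0.22 ± 0.10. Of the effectors, the lipoprotein receptor gene Vldlr had 0.25 ± 0.10, the ER oxidase gene Ero1l 0.22 ± 0.10 and the autophagy adaptor gene Sqstm1 -0.22 ± 0.11. Ddit4, which encodes the mTORC1 inhibitor REDD1, had 0.17 ± 0.20. In the ATF6 and XBP1 list 13 values were positive and 7 negative, with a median of 0.092. With limma-trend 9 were positive and 11 negative (median -0.029), and without wild-type replicate 2 there were 10 of each (median -0.014). The median of all genes was -0.088 with limma-trend and 0.012 without wild-type replicate 2. Herpud1, of ER-associated degradation, had 0.61 ± 0.25, Xbp1 0.37 ± 0.17 and the chaperone gene Hyou1 -0.34 ± 0.17. Hspa5, the gene of the main ER chaperone BiP, averaged 638 ± 198 CPM over wild-type and 665 ± 98.7 over knockout libraries (0.060 ± 0.210). None of the 87 genes separated the genotypes without overlap in CPM, beside 8.34% of all genes.

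**Figure D5:**
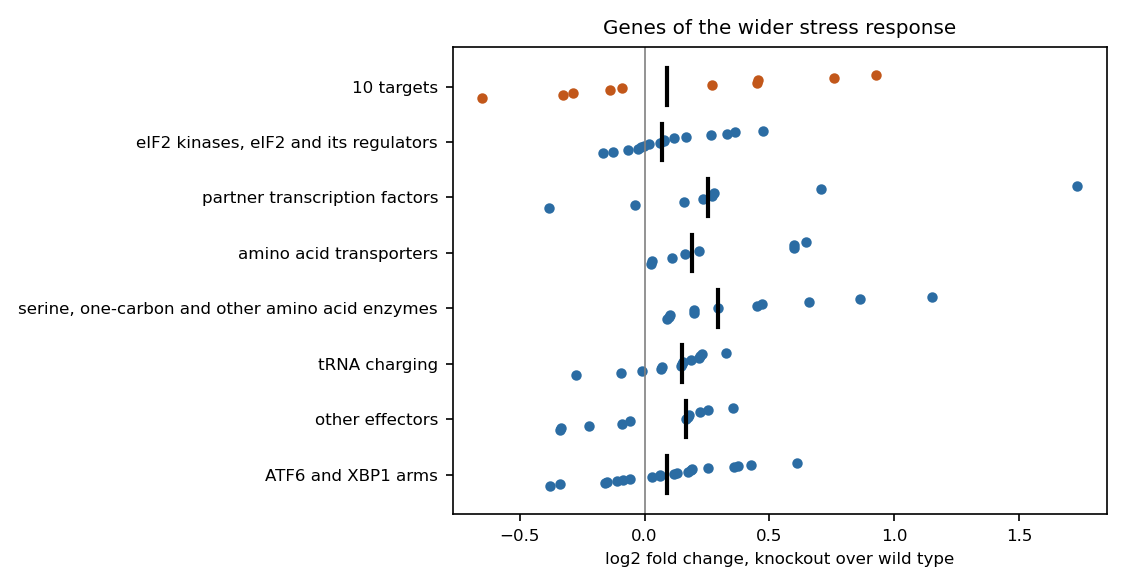
Log2 fold change (knockout over wild type) of the 10 targets and of each tested gene in the 7 lists; each point is a gene and the black line is the median of the list. All points of the amino acid enzyme and transporter lists lie above 0 in this fit (10 of 11 and 6 of 8 without a composition factor), and the medians of all 8 rows lie between 0.070 and 0.29. Without a composition factor those of the 10 targets, the eIF2 list and the other effectors are below 0 (-0.0098, -0.055 and -0.016). The median of all genes is -0.11 in that fit. Of all 13617 genes 6983 are above 0 in the fit shown and 5011 without a composition factor.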

How the data were processed

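Islet RNA of 8 mice was sequenced from SeqPlex libraries, made by random priming and amplification of total RNA, per the labels' protocols. The deposited first table holds estimated counts per gene, and 9.98 to 12.4% of its values were not whole within 0.01. Counts of Ddit3, Phgdh and Slc7a11 were among these, as were some of Atf4 (3383.9 in wild-type replicate 4). Reads shared with other annotated features may thus be split there. The second table holds RPM made by the authors, each value being the count over 1 constant per library plus 0.0001. STAR 2.4.1, Partek and mm9 are named in the submitters' processing notes, with roles, annotation and strandedness not given in the sources used here. Each library comes from its own mouse per the labels' protocols. No 2 libraries agreed within sampling noise (smallest chi-square per degree of freedom 24.7).

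Counts were rounded and fitted in R 4.3.3 by edgeR 4.0.16 (filterByExpr, TMM, robust quasi-likelihood F-test, genotype alone, Benjamini-Hochberg over the 13617 genes kept, threshold 0.05), after the fit had been tested on simulated data. CPM are counts over TMM-scaled library sizes, standard errors come from the F statistic, and alternatives used DESeq2 1.42.0 and limma 3.58.1. Correlations used log2 CPM with a prior count of 2. Lengths came from GENCODE M21 and promoters and gene order from RefSeq, both on GRCm38, not the submitters' mm9. Members and lists were chosen with earlier results of these data known. Named were the members, the 3 genes of smallest p per list, a few fixed names, the 2 genes most like each member (a selection is printed) and the neighbours of Ppp1r15a. The floor of 3 counts covers counting error only, while SDs and standard errors also hold the spread between libraries.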

Additional observations from a re-analysis of the deposited data

Results flagged for a closer look

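In 94 groups of 4 libraries (47 sets of values in 2 genotypes) 3 held a library far from the other 3, fewer than the 1 in 20 that chance alone flags. None of the 10 targets was among them. Cebpa was at 11.4 CPM in knockout replicate 2, while the other 3 knockout libraries had 1.90 to 3.22 CPM. Slc38a2 was at 26.2 CPM in wild-type replicate 2, while the other 3 had 37.7 to 38.7 CPM. Gpt2 was at 6.26 CPM in wild-type replicate 1, while the other 3 had 3.36 to 3.84 CPM.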

How the results depend on the processing

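Of the 10 targets 0 passed FDR 0.05 in the edgeR fit, and 1, Ppp1r15a, did with DESeq2, with limma-voom with library weights and with the share of acinar counts as a covariate without wild-type replicate 1, the last chosen after the values were seen. Leaving out 1 library gave 0 to 1, the 1 being without wild-type replicate 1. Ppp1r15a passed in 4 of 23 alternatives, with log2 fold changes of -0.82 to -0.55 and adjusted p-values of 0.0031 to 0.817. Over all genes the count was 2. It was 48 without a composition factor, 526 with DESeq2, 549 with limma-voom with library weights, 5 with the acinar covariate and 469 with that covariate without wild-type replicate 1. Leaving out 1 library gave 2 to 1313, the highest without wild-type replicate 1, while leaving out knockout replicate 4 gave 5. Among the other pathway genes 0 passed, 1 without a composition factor (Cebpa), 1 with DESeq2 (Gpt2) and 0 to 5 with 1 library left out. The acinar covariate without wild-type replicate 1 also gave 1, Gpt2. DESeq2 gave no adjusted p for Slc7a11 and Trib3.

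The median of the 10 targets, 0.089, turned to -0.0098 without a composition factor, -0.088 with CPM of at least 1 in 4 libraries (which drops Trib3), -0.059 with limma-voom with library weights and -0.087 with limma-trend. Leaving out 1 library gave -0.090 (without knockout replicate 2) to 0.31. Without a composition factor the median of all genes was -0.11, and with limma-trend it was -0.088. The genotypes did not overlap for 1 target, beside 8.34% of all genes, and for 0 in RPM, beside 1.36%. The count was 0 in CPM with library totals only and 1 to 2 with 1 library left out, the 2 being without wild-type replicate 1. For these settings no share over all genes is given, and fewer libraries separate more easily, so the counts cannot be read against a background. Signs turned for Chac1 (0.0097 with the acinar covariate without wild-type replicate 1), Eif2ak3 (-0.063 without a composition factor, -0.067 with limma-trend, -0.066 with the acinar covariate) and Slc7a5 (-0.14, -0.12 and -0.023 in these 3 fits). With the acinar covariate they also turned for Eif2ak4 (0.013), Nupr1 (-0.21) and Atf5 (0.012), and with limma-trend for Aldh18a1 (-0.044) and Hspa5 (-0.044). With 1 library left out the ranges that crossed 0 were -0.23 to 0.0043 for Ddit3, -0.13 to 0.51 for Trib3, -0.31 to 0.11 for Chac1, -0.081 to 0.16 for Eif2ak3, -0.098 to 0.065 for Eif2ak4, -0.18 to 1.25 for Nupr1, -0.17 to 0.076 for Atf5, -0.079 to 0.12 for Slc7a5 and -0.11 to 0.25 for Hspa5. The cause was not tested for any of these.

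Same-numbered libraries of the genotypes deviated together with correlations of 0.038 to 0.21, 1 of the 4 being under 0.1. Wild-type replicates 2, 3 and 4 correlated best with the knockout library of their own number (0.210, 0.156 and 0.147). Wild-type replicate 1 correlated best with knockout replicate 3 (0.287). Whether the numbers pair the mice is not settled by these values, and the fit on genotype alone does not use them. With the replicate number as a block 2 genes and 0 targets passed FDR 0.05, and Ppp1r15a had -0.65 (edgeR adjusted p = 0.212). At an unadjusted p under 0.05 the block fit called 6 targets, beside 16.2% of all genes, where the fit without it called 1: Asns (0.59), Psat1 (1.03), Phgdh (0.59) and Slc7a11 (1.14) higher, Ppp1r15a and Sesn2 (-0.33) lower. Their adjusted p-values in edgeR's blocked test were 0.212 to 0.280. Asns, Psat1, Phgdh and Slc7a11 correlated with each other at 0.936 to 0.978 across the libraries, so they are not 4 separate results. The standard error of Asns was 0.17 with the block and 0.47 without it, and that of Psat1 was 0.29 and 0.72. The depth behind Trib3 and Slc7a11, under 50 counts in each library, limits their values.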
